A study of Mus musculus with 4 samples.

Results

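The genes described here are 9 that build or regulate the contractile apparatus of smooth muscle, *Acta2*, *Tagln*, *Actg2*, *Cnn1*, *Myh11*, *Mylk*, *Lmod1*, *Myl9* and *Smtn*, together with *Myocd*, which encodes the transcriptional coactivator myocardin. They are 10 of the 28692 genes listed in each of 4 single-cell libraries of embryonic mouse intestine. The genes were chosen by name, and the question was how they are distributed over single cells, in which order they are detected together, and whether their level differs between regions and between mesenchymal, mesothelial and neural cells. All 4 libraries came from EYFP (C57BL/6) embryos at stage E12.5 (in days of gestation), with no treatment. 2 libraries (replicates 1 and 2) hold cells of the small intestine (SI) and 2 hold cells of the large intestine with the cecum (LI). Each region was sampled in 2 separate experiments on pooled embryos, so 1 library is a pool and not 1 animal. Cells of both regions had been sorted as live and positive for YFP and the stromal integrin Itgβ1, and as negative for CD45, Ter119, CD31 and EpCAM, so most leukocytes, erythroid cells, endothelium and epithelium were gated out while smooth muscle, mesothelium and neural crest cells were not. Some labels of these samples speak of adult lamina propria, and stage and region were taken from the sample titles.

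Smooth muscle contracts when myosin pulls on actin filaments. In the gut, smooth muscle cells (SMC) arise from the mesenchyme around the epithelial tube, and the circular muscle layer forms before the longitudinal one. Many contractile genes are switched on by serum response factor (SRF), which binds a short DNA motif called the CArG box, and myocardin is the coactivator that makes SRF drive muscle genes in particular. Contractile genes are not strictly limited to muscle, since myofibroblasts and other cells under tension can use several of them.

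*Acta2* (mm10, chr19:34241090-34255590, minus strand) and *Actg2* encode the α and γ smooth muscle actins of the thin filament. These paralogues have nearly the same coding sequence, so the split of reads between them is uncertain. *Myh11* is the smooth muscle myosin heavy chain, *Myl9* (chr2:156775420-156781658, plus strand) is the regulatory light chain, and *Mylk* is the kinase that phosphorylates that light chain and so starts contraction. *Cnn1* (calponin) and *Tagln* (transgelin, SM22α) are actin-binding proteins, *Smtn* (smoothelin) is associated with stress fibers, and *Lmod1* (leiomodin) nucleates actin filaments. Exons of *Tagln* overlap those of *Pcsk7* on the opposite strand, so the 2 genes are counted apart only where strand was used, whereas exons of the other 9 genes overlap no other annotated gene. *Myocd* lies on chr11:65176561-65269989, minus strand.

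To show where SRF could bind near these genes, the 250 bases before the annotated start were searched on both strands for the CArG box. RefSeq promoter sequences (GRCm38.p6, the same assembly as mm10) were found for 6 of the 10 genes, *Acta2*, *Cnn1*, *Mylk*, *Lmod1*, *Myl9* and *Smtn*. A match with 1 G or C tolerated in the A/T centre was present in 2 of them, *Acta2* and *Myl9*, with 2 matches each, against 8.59% of all 32851 promoters. 1 of the *Myl9* matches was exact, as in 1.47% of all promoters. Each match is printed 5′ to 3′ on the strand of its gene, with the match in capitals and 10 bases on either side:
Acta2, chr19:34255438-34255467: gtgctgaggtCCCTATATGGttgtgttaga
Acta2, chr19:34255388-34255417: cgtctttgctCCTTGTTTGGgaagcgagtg
Myl9, exact, chr2:156775293-156775322: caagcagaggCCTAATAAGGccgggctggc
Myl9, chr2:156775355-156775384: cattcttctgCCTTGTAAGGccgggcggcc
These matches begin 84 and 34 bases before the RefSeq start of *Acta2* and 161 and 99 bases before that of *Myl9*. GENCODE places the start of *Acta2* further upstream, so that both of its matches fall within an annotated *Acta2* exon, whereas those of *Myl9* lie in no exon. The other 4 promoters held no match. The motif CATTCC, bound by TEAD factors, stood in 4 of the 6 windows (*Acta2*, *Mylk*, *Lmod1* and *Smtn*) and in 12.6% of all promoters. These are matches of letters and not measured binding.

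The libraries held 5151 to 6881 cell barcodes and 31630548 to 62886525 unique molecular identifiers (UMIs, each counting 1 captured transcript). After filtering, 22094 cells were kept, with medians of 4220 UMIs per cell in LI replicate 1 and 8384 to 8834 in the other 3 libraries. No pair of libraries shared more than 15 barcodes. Clustering used neither the 10 genes nor the other contractile genes examined below. Cells of 1 cluster, 6790 in all, were called SMC-like because *Tpm1*, *Tpm2*, *Cald1*, *Synpo2* and *Pdlim3* were raised in them. The 10 genes that led this cluster by fold included 8 of the genes described here, all but *Tagln* and *Smtn*. The other muscle markers used for naming were not raised by the same rule. They were *Csrp1*, *Pcp4*, *Kcnmb1*, *Ppp1r14a* and desmin (*Des*), which is often used to mark muscle. The SMC-like cluster made up 28.9% to 31.9% of each library, which is not the share of cells with muscle transcripts. Its cells with at most 1 of the 10 genes, after thinning to equal depth, were 46.4% and 25.2% in LI replicates 1 and 2. They were 7.47% and 1.37% in SI replicates 1 and 2. With contractile genes used for clustering, the SMC-like cluster held 4945 cells, 38.0% of them from 1 library. Whether the cluster held the same kinds of cells in each library was not tested. FB-like (fibroblast-like) cells formed clusters 1, 2 and 4, with 8818 cells. Cluster 2, of 2760 cells, was led by histone genes such as *Hist1h2ae*. The name rests on fibroblast markers such as *Pdgfra* and *Col1a1*, and 8 such markers were detected in the SMC-like cluster too. Clusters of 1319 mesothelial-like and 1239 neural-like cells were also found. Clusters 3 and 5, of 2114 and 1511 cells, stayed unnamed since a pericyte marker (*Rgs5*) or an epithelial marker (*Epcam*) stood among their 10 leading genes. Those of cluster 5 also included *Ccnb2*, *Cenpa* and *Knstrn*, which act in cell division. Of the fibroblast markers, 8 were detected in cluster 3 and 7 in cluster 5. Among the muscle markers, *Des* was raised in clusters 1 and 4, *Ppp1r14a* in cluster 3 and *Pcp4* in the mesothelial-like cluster. SMC-like and FB-like cells together are called mesenchyme-like. UMI counts were summed per library and group and are given as CPM, the counts scaled to the same total in every library and group. Levels are compared between cells and libraries, not between genes.

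In SMC-like cells, the 10 genes differed widely between the libraries of a single region, and each was higher in replicate 2 than in replicate 1 of both regions. Values are given in the order LI 1, LI 2, SI 1, SI 2, the number being that of the replicate. *Acta2* stood at 333, 1743, 2499 and 5125 CPM. *Myh11* stood at 5.69, 110, 128 and 637 CPM in the same order. *Mylk* stood at 62.7, 278, 453 and 883 CPM. LI replicate 1 was thus lowest and SI replicate 2 highest, with LI replicate 2 and SI replicate 1 next to each other between them. *Actg2* (47.4, 279, 418 and 976 CPM) and *Cnn1* (22.0, 110, 150 and 399 CPM) kept the same order. For *Tagln* it was 283, 649, 453 and 1272 CPM, with LI replicate 2 above SI replicate 1, and *Myl9*, *Lmod1* and *Myocd* also had this order.

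The genes differed in how far they spread over the libraries. Which of the library kits named in the methods, with capture at the 3′ or the 5′ end of transcripts, was used for each library is not given in the sources used here, so a difference in capture and a difference in level cannot be told apart between libraries. The highest library exceeded the lowest 112-fold for *Myh11*, 20.6-fold for *Actg2*, 18.1-fold for *Cnn1*, 15.4-fold for *Acta2* and 14.1-fold for *Mylk*. The ratio was 6.07-fold for *Lmod1*, 4.49-fold for *Tagln* and 3.96-fold for *Myl9*. It was smallest for *Myocd*, at 3.14-fold (66.5, 150, 133 and 209 CPM), and for *Smtn*, at 2.42-fold (24.3, 38.0, 42.7 and 59.0 CPM). The *Myh11* value of LI replicate 1 rests on 47 UMIs.

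**Figure D1:**
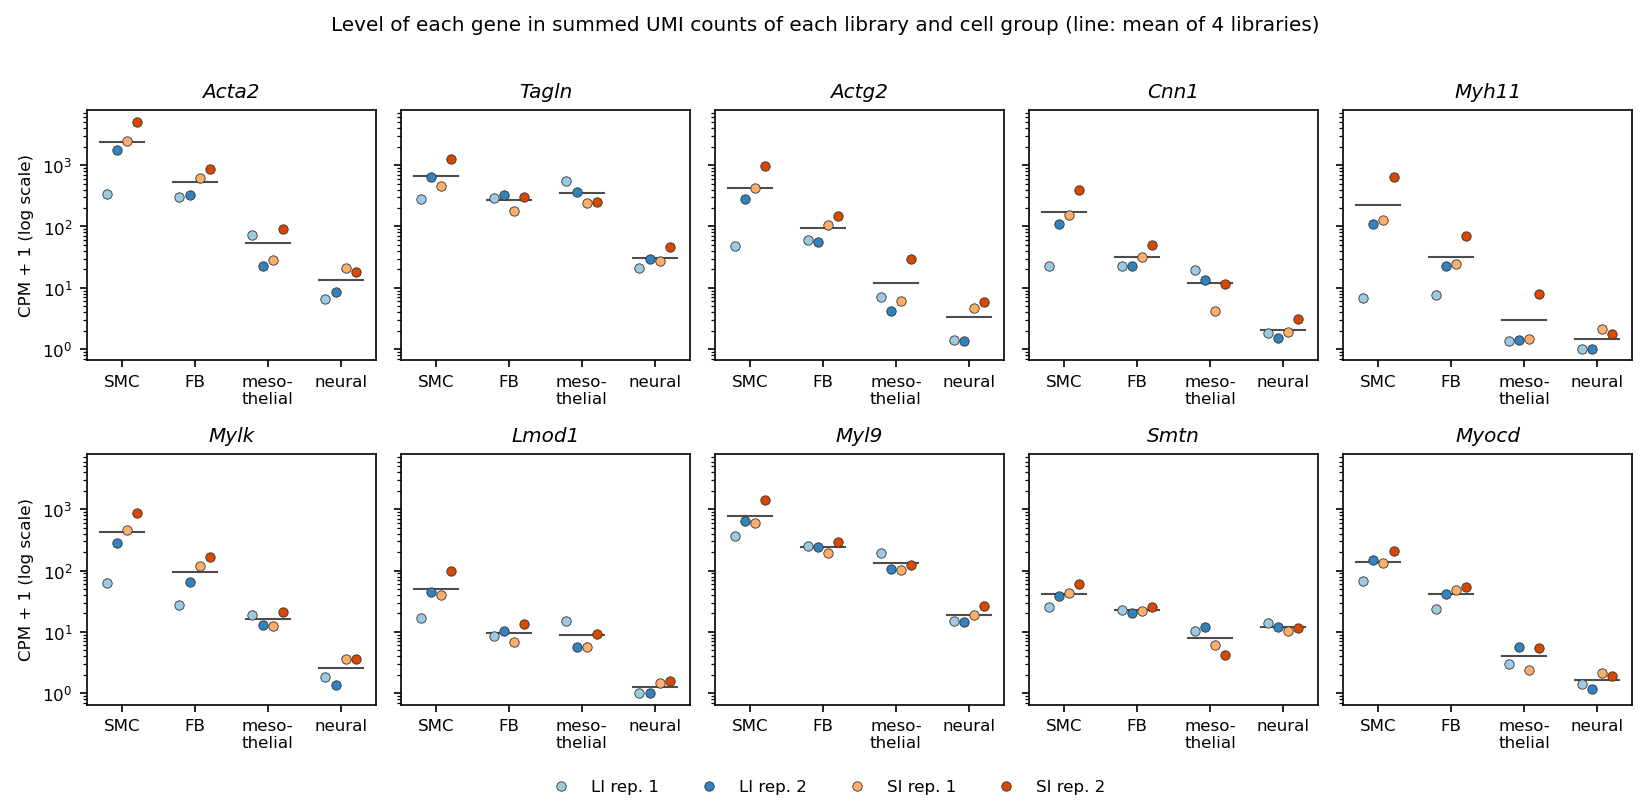
CPM + 1 on a log axis for each gene in the summed counts of SMC-like, FB-like, mesothelial-like and neural-like cells, 1 point per library, with a line at the mean of 4 libraries. *Tagln* stays near its FB-like level in mesothelial-like cells, where *Myh11* and *Myocd* drop to a few CPM, and *Smtn* varies least across groups.

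All 10 genes had a higher fitted level in SI than in LI in SMC-like cells, yet none passed the test. A difference in the mix of cells within the SMC-like cluster and one in level per cell cannot be told apart in these sums. By edgeR's quasi-likelihood test with 2 libraries per region, 0 of 10 had an adjusted p under 0.05, against 3.82% of the 12745 genes tested, and 8 of 10 had an unadjusted p under 0.05, against 16.8%. With DESeq2 3 of 10 had an unadjusted p under 0.05 (13% of all genes tested), and with the contractile genes used for clustering 3 of 10 (12.3%), with a median log2 difference of 1.205 over the 10 genes. The log2 difference, SI over LI, was 2.90 ± 1.11 (SE) for *Myh11* (adjusted p = 0.233), 2.28 ± 0.71 for *Actg2* (0.149), 2.06 ± 0.66 for *Acta2* (0.158) and 0.83 ± 0.36 for *Myocd* (0.3002). The median over the 10 genes was 1.72, and over all genes tested 0.01. The 2 SI libraries stood above the 2 LI libraries for *Acta2*, *Actg2*, *Cnn1*, *Myh11*, *Mylk* and *Smtn*, which is 6 of 10, against 12.2% of all genes tested. The median over the 10 genes was 1.08 without LI replicate 1, 2.91 without LI replicate 2, 2.21 without SI replicate 1 and 0.97 without SI replicate 2. The count of calls depended on the fit. With replicate number added as a block the count was 10 (10.3% of all genes), though replicates of 1 number shared no stated source. It was 1 with DESeq2 (4.97% of all genes), 10 when genes with low counts were not filtered out (8.21%), 4 without LI replicate 1 (4.21%), 3 without SI replicate 2 (3.36%), and 10 when either LI replicate 2 (13.6%) or SI replicate 1 (6.4%) was left out. Each fit with 1 library left out has a lone sample in 1 region, which is assumed to vary like the samples of the other region, and calls in it are no support. Depth moved with part of this difference, as SMC-like cells of LI replicate 1 had a median of 3903 UMIs against 7945 to 8470 in the other libraries, and the order of the libraries was the same at equal depth for *Acta2* and *Myh11*, as given below.

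Over all mesenchyme-like cells the result was alike. 0 of 10 genes passed the test, against 3.59% of 14093 genes, with 9 of 10 at an unadjusted p under 0.05 (16.4% of all genes tested) and a median log2 difference of 1.51. That median was 1.01 without LI replicate 1, 2.28 without LI replicate 2, 1.99 without SI replicate 1 and 0.83 without SI replicate 2. The SI libraries lay above the LI libraries for the 6 genes named for SMC-like cells, against 12.4% of all genes tested. With replicate number as a block, 9 of 10 were called (12.7% of all genes). The count rose to 10 without the filter on low counts (7.56% of all genes) and ranged from 5 to 10 when 1 library was left out (4.37% to 13.8%), with the highest of both without LI replicate 2. In sums of all kept cells 0 of 10 passed as well, against 1.94% of 14920 genes, with 6 at an unadjusted p under 0.05 (14.6% of all genes tested). There, too, the count rose, to 8 without the filter (5.93%) and to between 3 and 8 with 1 library left out (3.46% to 12.2%). In such sums, fewer cells of a type and less RNA per cell cannot be told apart.

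**Figure D2:**
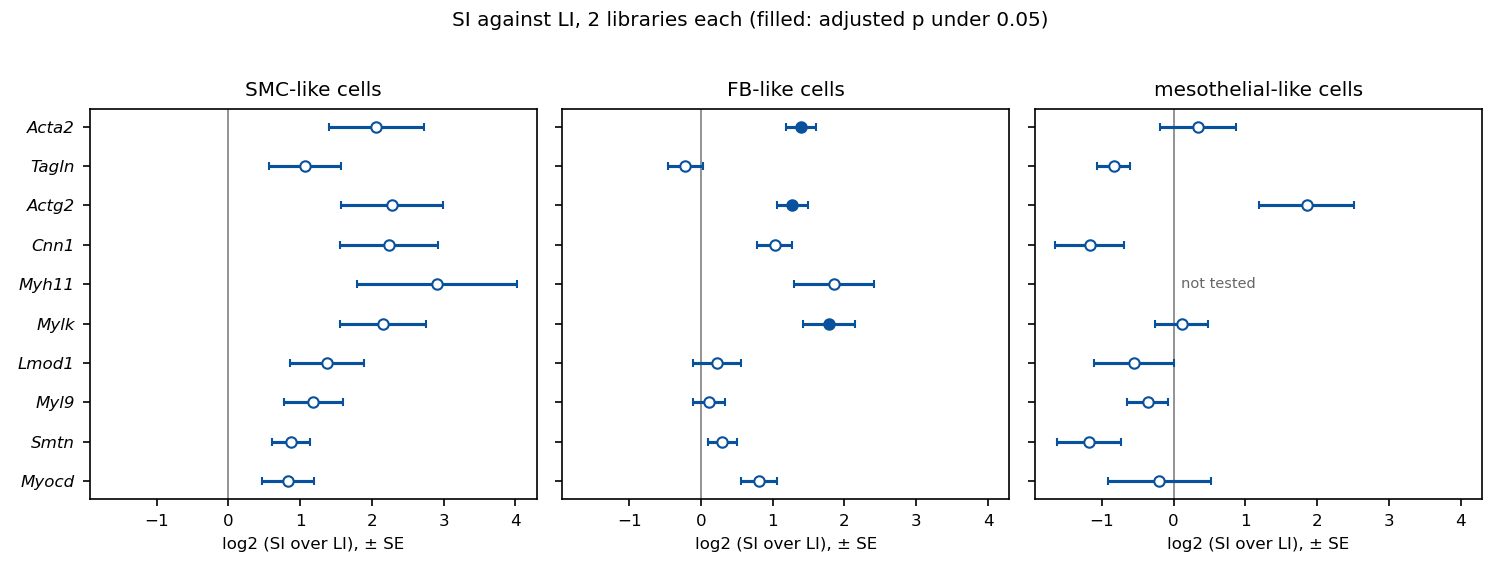
Log2 difference of SI over LI with its SE for each gene in SMC-like, FB-like and mesothelial-like cells (2 libraries per region, edgeR quasi-likelihood test). Only *Acta2*, *Actg2* and *Mylk* in FB-like cells are filled (adjusted p under 0.05), and in mesothelial-like cells 6 of the 9 genes tested lie on the LI side, *Tagln*, *Cnn1*, *Smtn*, *Lmod1*, *Myl9* and *Myocd*.

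To separate the share of cells that use a gene from the amount per cell, every cell was thinned to 3000 UMIs, which left out 1056 of 15608 mesenchyme-like cells, 809 of them from LI replicate 1. Among SMC-like cells, *Acta2* was detected in 32.0% (95% Wilson interval 29.8% to 34.4%), 65.2% (62.7% to 67.7%), 88.4% (86.7% to 89.97%) and 97.8% (97.1% to 98.4%), again from LI 1 to SI 2. Such intervals cover counting error only. Without thinning the shares were 34.7%, 72.7%, 93.1% and 98.9%. In the cells with *Acta2*, its mean rose from 3.37 UMIs through 8.05 and 9.0 to 16.2 in the same order, so that both the share and the amount per positive cell differed between libraries.

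*Myh11* was detected in 1.2%, 16.6%, 23.3% and 63.1% of SMC-like cells, with means of 1.68, 2.14, 2.05 and 3.17 UMIs in the positive cells. Within the 4 libraries the variance of its count was 2.42 to 3.40 times the mean, against 4.95 to 8.06 times for *Acta2*, 2.82 to 3.85 times for *Tagln* and 1.13 to 1.38 times for *Myocd*. The tenth of SMC-like cells with the most *Myh11* held 100%, 81.6%, 70.3% and 40.5% of its UMIs in the 4 libraries, and for *Acta2* 63.3%, 38.0%, 26.6% and 21.1%. *Myocd* was detected in 16.6%, 32.1%, 32.9% and 43.1% of SMC-like cells. Its mean in positive cells stayed between 1.21 and 1.45 UMIs, and 5 or more UMIs were found in 0.064% of SMC-like cells. *Smtn* behaved alike, with 6.43%, 10.7%, 11.6% and 15.8% of cells positive and 1.07 to 1.14 UMIs in them. In neural-like cells, which should lack these genes and were deeper (median 13202 UMIs, against 7092 in SMC-like cells), *Acta2* was detected in 4.21%, *Myh11* in 0.248% and *Myocd* in 0.083% of 1212 thinned cells.

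**Figure D3:**
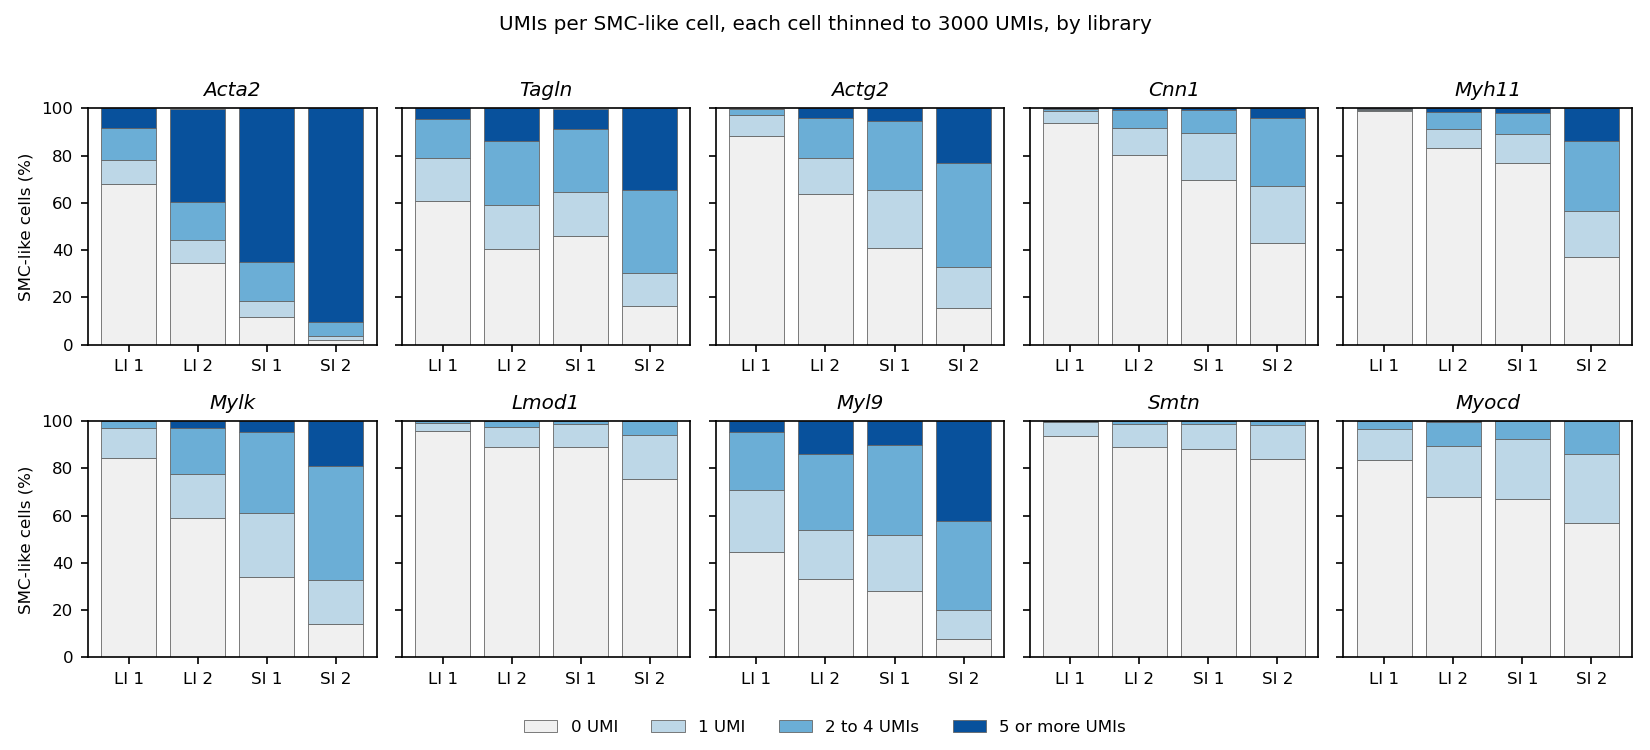
Share of SMC-like cells with 0, 1, 2 to 4, or 5 or more UMIs of each gene in each library after thinning to 3000 UMIs. *Acta2* moves from 8.39% of cells with 5 or more UMIs in LI replicate 1 to 90.4% in SI replicate 2, whereas *Myocd* and *Smtn* stay at 1 UMI in most positive cells.

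The number of the 10 genes found in 1 cell gives a measure of how complete the programme is. SMC-like cells had a median of 2, 3, 4 and 7 of the 10 genes in LI 1, LI 2, SI 1 and SI 2. At least 8 of the 10 were found in 0.126%, 7.18%, 8.29% and 31.9% of SMC-like cells. FB-like cells had a median of 1 in every library, and neural-like cells a median of 0. Over all mesenchyme-like cells, 5 or more genes were found in 3.98% (Wilson interval 3.39% to 4.67%), 19.0% (17.7% to 20.4%), 25.4% (24.0% to 26.9%) and 45.6% (44.1% to 47.1%) of cells. The means were 11.5% ± 10.6 (SD, n = 2) in LI and 35.5% ± 14.3 (SD, n = 2) in SI. By the exact 2-sided permutation test over libraries p was 0.333, the smallest value that 2 against 2 libraries allow.

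**Figure D4:**
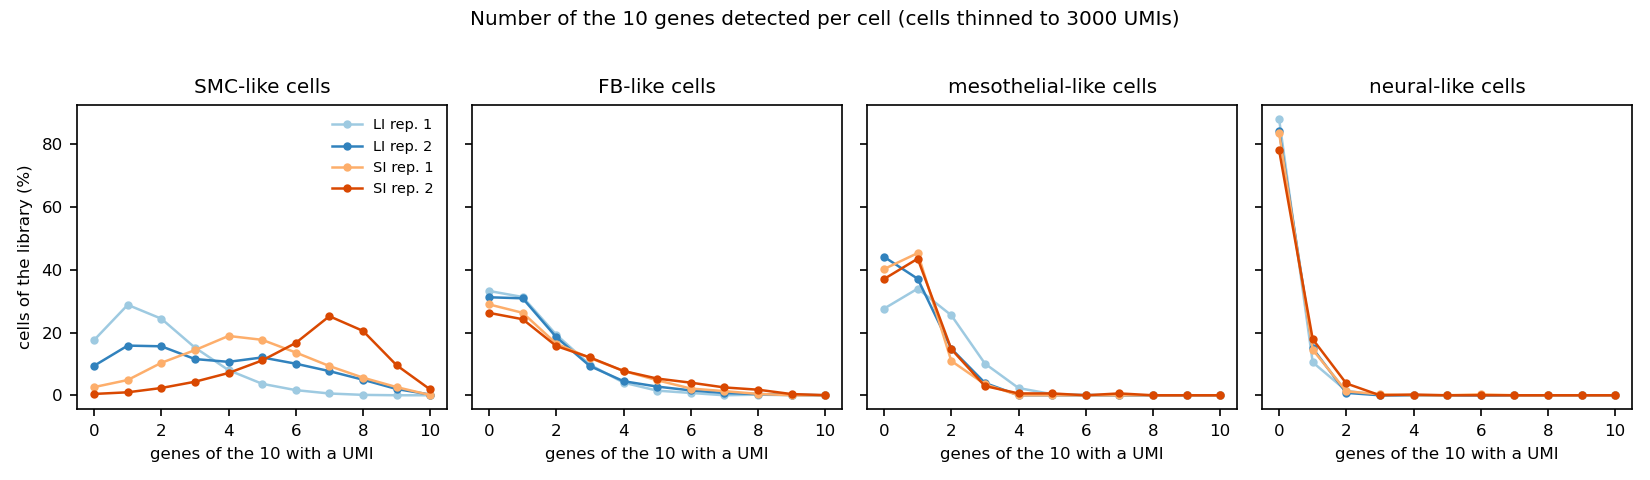
Share of cells of each library (y axis, %) by the number of the 10 genes with a UMI (x axis), in the 4 cell groups, after thinning to 3000 UMIs. In SMC-like cells the curve shifts from a median of 2 genes in LI replicate 1 to 7 in SI replicate 2, while most neural-like cells stay at 0 or 1.

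To order the genes by co-detection, thinned mesenchyme-like cells in which only 1 of the 10 genes was found were examined, 591 to 1094 cells per library. That gene was *Myl9* in 35.6% of them (mean of 4 libraries, range 26.3% to 44.7%), *Tagln* in 26.8% (23.9% to 29.4%), *Acta2* in 15.6% (11.5% to 20.03%), *Mylk* in 8.19% (6.40% to 10.8%) and *Myocd* in 5.37% (4.40% to 7.06%). It was *Smtn* in 3.83% (2.98% to 5.08%), *Actg2* in 2.80% (1.55% to 4.76%) and *Cnn1* in 1.2%. *Lmod1* (0.350%) and *Myh11* (0.277%) were almost never found alone. The ranges of *Myl9* and *Tagln* overlapped, as did those of *Mylk* and *Myocd*, and those of *Myocd*, *Smtn* and *Actg2* with each other. Conversely, by the mean of 4 libraries, cells with *Myh11* carried the most companions, 5.27 of the other 9 genes (range 3.83 to 6.15). Cells with *Lmod1* (5.03, 2.83 to 6.81) and *Cnn1* (4.75, 2.96 to 6.15) followed, and these ranges overlapped. Cells with *Myl9* carried 3.03. Such an order also follows the abundance of each gene, since a scarce transcript is seldom sampled first.

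The detection of 1 gene given another was one-sided for several pairs. Of mesenchyme-like cells with *Myh11*, 85.7% to 98.9% also had *Acta2*, whereas of cells with *Acta2* only 3.17% to 49.5% had *Myh11*. Cells with *Myocd* had *Acta2* in 42.2%, 75.8%, 84.2% and 90.6% of cases (LI 1, LI 2, SI 1, SI 2), against 24.4% to 58.6% of cells without *Myocd*. They had *Mylk* in 21.2%, 52.8%, 61.2% and 79.3% of cases and *Myh11* in 1.34%, 24.2%, 25.0% and 55.7%. In LI replicate 1, then, most cells with a *Myocd* UMI had no *Acta2* UMI and nearly all had no *Myh11* UMI at this depth. Of cells with *Acta2*, 16.6% to 35.4% had *Myocd*, against 7.36% to 8.05% of cells without *Acta2*.

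A second ordering scaled each gene to its own maximum. Mesenchyme-like cells of a library were divided into deciles by a score summed over the other 9 genes, and the mean of the gene in each decile was divided by its mean in the top decile. *Smtn* had the highest baseline, 27.7% of its top level in the first decile (mean of 4 libraries, range 15.8% to 56.2%) and 10.3% to 32.5% in neural-like cells. In the first decile *Myocd* stood at 12.9% (6.07% to 24.8%), *Myl9* at 10.7% and *Tagln* at 10.6%. In the fifth decile *Smtn* stood at 37.2% (25.0% to 54.0%) and *Myocd* at 26.3% (14.03% to 37.1%). *Tagln* stood at 18.4% (14.6% to 25.1%), *Myl9* at 17.3% (14.1% to 24.2%) and *Mylk* at 14.9% (5.27% to 23.8%). Below these stood *Acta2* at 9.05% (3.91% to 13.8%), *Actg2* at 7.11% (2.15% to 10.0%), *Cnn1* at 5.43% (2.86% to 7.97%), *Lmod1* at 4.79% (3.57% to 8.33%) and *Myh11* at 0.990% (0% to 2.63%). Neighbours in this order overlapped in their ranges over libraries, except *Lmod1* and *Myh11*, and the ranges of *Myocd* and *Acta2* did not overlap either.

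The midpoint of the top level was reached by *Myocd* in decile 9 in both LI libraries and in deciles 6 and 7 in SI, a mean of 7.75 ± 1.5 (SD, n = 4). In the same order of libraries, *Acta2* reached it in decile 10, 10, 9 and 7, and *Myh11* in decile 10, 10, 10 and 9. *Smtn* reached it in decile 1, 8, 5 and 7. In LI replicate 1 *Smtn* rose unevenly, from 56.2% of its top level in decile 1 and 34.4% in decile 5 to 106% in decile 8. With the score taken from other contractile genes, which include none of the 10, the mean decile of *Myocd* was 7.0. Deciles rank cells by the other genes and are not a time course.

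**Figure D5:**
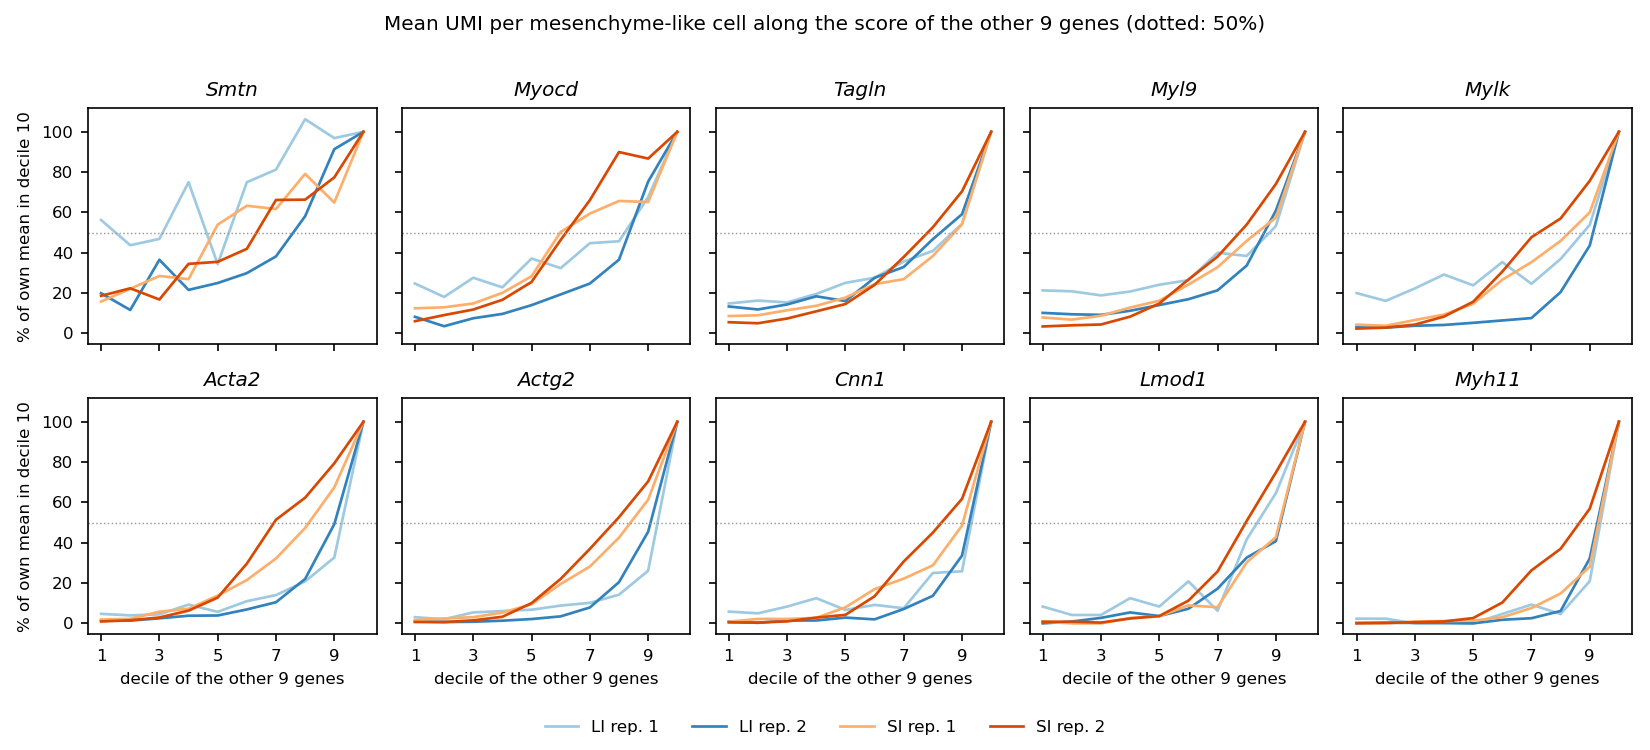
Mean UMI per thinned mesenchyme-like cell as a percentage of the gene's own mean in decile 10, by decile of a score over the other 9 genes, 1 line per library. *Myocd* passes the midpoint of its top level in deciles 6 and 7 in SI and in decile 9 in LI, *Smtn* rises unevenly from a high baseline in LI replicate 1, and *Myh11* stays under 10% of its top level up to decile 7 in 3 of the 4 libraries.

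FB-like cells carried the same genes, at levels below those of SMC-like cells for 7 of 10 in LI replicate 1 and for 10 of 10 in each of the other 3 libraries. The SMC-like level exceeded the FB-like level 2.78- to 4.0-fold for *Myocd* and 2.40- to 5.27-fold for *Mylk* over the 4 libraries. In LI replicate 1 the ratio was 1.12 for *Acta2*, 0.788 for *Actg2*, 1.02 for *Cnn1*, 0.851 for *Myh11*, 0.964 for *Tagln* and 1.13 for *Smtn*, and it was 1.46 for *Myl9*, 2.15 for *Lmod1*, 2.40 for *Mylk* and 2.89 for *Myocd*. In SI replicate 2 the ratios were 5.87, 6.54, 8.02, 9.09, 4.19 and 2.40 for the first 6 of these genes and 4.90, 8.02, 5.27 and 4.0 for the other 4. As clusters were formed on these cells, the ratios are descriptions and were not tested.

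In the summed counts of FB-like cells, SI and LI differed for *Acta2*, *Actg2* and *Mylk*. *Acta2* stood at 298 and 326 CPM in LI and at 613 and 874 CPM in SI, *Actg2* at 60.1 and 54.6 CPM against 104 and 149 CPM, and *Mylk* at 26.1 and 65.0 CPM against 117 and 168 CPM. The libraries of the 2 regions did not overlap for these genes, nor for *Cnn1*, *Myh11* and *Myocd*, where SI was also above LI (6 of 10, against 12.7% of the genes tested). By edgeR's quasi-likelihood test 3 of 10 passed, against 2.67% of 13429 genes, all higher in SI (0.827% of all genes tested), with log2 differences of 1.39 ± 0.21 (SE) for *Acta2* (adjusted p = 0.0105), 1.27 ± 0.21 for *Actg2* (adjusted p = 0.0176) and 1.78 ± 0.36 for *Mylk* (adjusted p = 0.0432). These 3 calls held under each alternative fit on all 4 libraries. The sums pool clusters 1, 2 and 4, however. *Acta2* in cluster 4 was 10.97 times its level in cluster 1 in LI 1 and 0.836 times in LI 2. Whether the region difference holds within each of these clusters was not tested. *Cnn1* (1.03 ± 0.25, adjusted p = 0.0786) and *Myocd* (0.81 ± 0.25, adjusted p = 0.177) did not pass, nor did *Myh11*, while *Tagln* (−0.22 ± 0.25), *Myl9* (0.11 ± 0.22), *Lmod1* and *Smtn* had differences under 0.30. In neural-like cells *Acta2* stood at 5.59 to 20.1 CPM, 0.0188 to 0.0328 times the FB-like level.

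The region difference itself was not shown to differ between SMC-like and FB-like cells. In the interaction of class and region 0 of 10 genes passed, against 0.393% of 13481 genes, with 4 of 10 at an unadjusted p under 0.05 (10.6% of all genes tested). By DESeq2 0 of 10 were called, against 0.349% of all genes. The count was 3 without the filter on low counts (1.36% of all genes) and 2 without LI replicate 2 (0.051%).

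Within the FB-like cells, cluster 4, led by *Anxa2*, *Tac2* and *Wnt4*, had little *Myocd* in every library. Its *Acta2* was above the SMC-like level in LI replicate 1 only. In LI replicate 1 it had *Acta2* at 1015 CPM, *Tagln* at 744 CPM and *Actg2* at 238 CPM, each above the SMC-like level of that library, whereas *Myocd* stood at 1.96 CPM. In the other 3 libraries (LI 2, SI 1, SI 2) *Acta2* in this cluster stood at 126, 279 and 267 CPM and *Myocd* at 3.96, 4.80 and 8.86 CPM. In cluster 1, also FB-like, *Myocd* stood at 14.3, 36.4, 32.4 and 54.96 CPM and *Acta2* at 92.6, 151, 207 and 581 CPM. Cluster 4 thus had 0.109 to 0.161 times the *Myocd* level of cluster 1 in the 4 libraries, whereas its *Acta2* was 10.97 and 1.35 times as high in LI 1 and SI 1 and 0.836 and 0.460 times as high in LI 2 and SI 2. *Actg2*, *Cnn1*, *Myh11* and *Smtn* were likewise higher in cluster 4 in 2 of 4 libraries, *Tagln* in 4 of 4, and *Mylk*, *Lmod1* and *Myl9* in LI 1 alone. The ratio of *Mylk* was 1.32, 0.633, 0.295 and 0.157 in LI 1, LI 2, SI 1 and SI 2. Cells with 5 or more *Acta2* UMIs after thinning, a cut set after these values were seen, numbered 77 in cluster 4, of which 44 were from LI replicate 1. Of these 77 cells, 1 had a *Myocd* UMI, and 10.4% had *Mylk*, 96.1% *Tagln* and 57.1% *Actg2*. Of the 3334 SMC-like cells with as much *Acta2*, 43.5% had *Myocd*, 80.6% *Mylk*, 78.9% *Tagln* and 80.0% *Actg2*. In LI replicate 1 alone, 33.8% of the 133 such SMC-like cells had *Myocd*, against 2.27% of the 44 cells of cluster 4. No test was made, as the cells were chosen by *Acta2* and the clusters on the same cells.

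In mesothelial-like cells *Tagln* stood near or above its FB-like level, and the other genes kept different parts of theirs. *Tagln* stood at 547, 367, 242 and 250 CPM, from LI 1 to SI 2, which is 0.825 to 1.86 times the FB-like level of the same library and 5.63 to 27.1 times the neural-like level. *Myl9* stood at 194, 103, 99.8 and 124 CPM, 0.423 to 0.781 times the FB-like level and 4.86 to 13.7 times the neural-like level. *Lmod1* stood at 13.9, 4.68, 4.56 and 8.20 CPM, on 42, 12, 10 and 13 UMIs, and at 1.86, 0.497, 0.778 and 0.672 times the FB-like level. Counted strictly, 0 of 10 genes were higher in mesothelial-like than in FB-like cells in all 4 libraries, and *Tagln* was higher in 3 of 4. Without SI replicate 2 the count was 1, *Tagln*.

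After thinning, *Tagln* was detected in 59.6%, 39.3%, 39.1% and 42.4% of mesothelial-like cells, and in 66.1%, 58.9%, 58.5% and 61.3% without thinning. In neural-like cells, whose median depth was 13202 UMIs against 6095, the thinned shares were 4.79%, 6.13%, 5.99% and 8.0%. No UMI of *Acta2*, *Actg2*, *Myh11* or *Myocd* was found in 1107 of the 1220 thinned mesothelial-like cells, and 46.6% of those 1107 had *Tagln* and 30.4% had *Myl9*. Of the 557 cells in which the mesothelial genes *Wt1*, *Upk3b* and *Krt19* were all detected, 46.9% had *Tagln*. The ratio of *Tagln* to *Acta2* UMIs was 7.66, 16.8, 8.69 and 2.78 in mesothelial-like cells against 0.850, 0.372, 0.181 and 0.248 in SMC-like cells of the same libraries. In neural-like cells this ratio was 3.62, 3.71, 1.33 and 2.58, also above that of SMC-like cells in each library.

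The other 7 genes were below their FB-like level in all 4 libraries. *Mylk* stood at 11.4 to 20.2 CPM (0.0973 to 0.670 times the FB-like level), *Cnn1* at 3.19 to 18.2 CPM (0.104 to 0.843 times) and *Smtn* at 3.15 to 10.9 CPM (0.128 to 0.569 times). *Acta2* stood at 71.4, 21.8, 27.8 and 90.2 CPM, at most 0.240 times the FB-like level. *Myocd* (1.37 to 4.68 CPM) and *Myh11* (1 UMI in each of 3 libraries and 11 in SI replicate 2) were close to absent. The shares of thinned cells with *Myocd* (0.574%) and *Myh11* (0.246%) compare with 0.083% and 0.248% in neural-like cells.

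Between regions, no gene passed the test in mesothelial-like cells. *Tagln*, *Cnn1* and *Smtn* were higher in both LI libraries than in both SI libraries, which is 3 of the 9 genes tested and near the 25.0% of all genes tested, with log2 differences of −0.83 ± 0.23 (SE), −1.17 ± 0.48 and −1.18 ± 0.44, and *Actg2* had a difference of 1.85 ± 0.67 towards SI, where 46 of its 83 UMIs came from SI replicate 2. None of the 9 genes that could be tested passed edgeR's test, against 1.12% of 10663 genes, and 4 of 9 had an unadjusted p under 0.05 (11% of all genes tested). The smallest adjusted p was that of *Tagln* (0.136). DESeq2 made 0 calls, against 0.966% of all genes tested. On leaving out LI 1, 2 genes were called, both higher in SI (2.63% of all genes tested). On leaving out LI 2, 1 was higher in SI and 3 in LI (11.9%), and on leaving out SI 1, 1 was higher in SI (1.2%). *Myh11*, with both SI libraries above both LI libraries, was too low to test.

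The difference between regions did differ between mesothelial-like and FB-like cells for 3 of the 10 genes, against 3.46% of 12804 genes. The interaction of class and region was −2.18 ± 0.34 (log2, SE) for *Cnn1* (edgeR adjusted p = 0.000366), −1.74 ± 0.38 for *Mylk* (adjusted p = 0.00976) and −1.45 ± 0.40 for *Smtn* (adjusted p = 0.0451), so that SI over LI was lower in mesothelial-like cells. That of *Tagln* was −0.53 ± 0.19 (adjusted p = 0.159). The call of *Cnn1* held under each alternative fit on all 4 libraries. That of *Mylk* was lost when doublets were kept, when LI replicate 1 was left out and by DESeq2, and that of *Smtn* under 5 of the 9 alternatives. The *Cnn1* values of mesothelial-like cells rest on 55, 32, 7 and 17 UMIs.

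In neural-like cells most of the genes were near absent. *Actg2*, *Cnn1*, *Myh11*, *Mylk*, *Lmod1* and *Myocd* stood at 4.81 CPM or less in each library, *Tagln* at 20.2 to 44.4 CPM and *Myl9* at 13.3 to 25.5 CPM. *Acta2* was at 5.59 and 7.54 CPM in LI and at 20.1 and 17.2 CPM in SI, and both SI libraries lay above both LI libraries for 4 of the 6 genes with enough counts to test, *Acta2*, *Actg2*, *Mylk* and *Myl9*, against 24.6% of the genes tested. For *Acta2*, *Actg2* and *Mylk* the log2 differences were 1.40 ± 0.29 (SE), 3.35 ± 0.63 and 2.23 ± 0.68, on 13 to 93, 1 to 26 and 2 to 14 UMIs per library. 0 of the 6 genes tested passed edgeR's test, against 0.328% of 11273 genes, with 3 at an unadjusted p under 0.05 (8.32% of all genes tested). DESeq2 called 0 of them, against 0.869% of all genes. The number of calls was 2 of 7, 2 of 6 and 1 of 7 genes tested on leaving out LI 1, LI 2 and SI 1, against 2.05%, 12.9% and 1.16% of all genes. *Smtn* stood at 12.9, 10.9, 9.41 and 10.7 CPM in neural-like cells, at or above its mesothelial-like level in each library. Of all *Smtn* UMIs, 3.98% were in neural-like cells, against 0.052% (*Myh11*) to 0.796% (*Tagln*) for the other 9 genes. Its thinned share of positive neural-like cells was 2.72%. The SMC-like level of *Smtn* was 1.13 to 2.40 times its FB-like level, and no other gene had a lower highest ratio.

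Of the UMIs of each gene in the kept cells, SMC-like cells held 78.2% for *Myh11*, 72.4% for *Lmod1*, 71.5% for *Cnn1*, 68.0% for *Actg2*, 65.3% for *Acta2*, 64.7% for *Mylk*, 61.7% for *Myocd*, 60.3% for *Myl9*, 52.3% for *Tagln* and 45.3% for *Smtn*. These shares are pooled over libraries and weigh SI replicate 2 most for genes such as *Myh11*. In LI replicate 1 the SMC-like level was 0.851 times the FB-like level for *Myh11*, and *Myocd* (2.89) and *Mylk* (2.40) had the highest ratios there. The unnamed clusters 3 and 5 held 3.35% to 12.4% of the UMIs each. In cluster 5, *Acta2* stood at 143, 1161, 1350 and 2902 CPM and *Myocd* at 31.3, 95.9, 71.4 and 115 CPM, in the library order of the SMC-like cells. Adding both clusters to the mesenchyme-like cells left 0 of 10 genes called between regions, against 4.07% of 14380 genes. In cluster 5 alone 1 of 10 was called, against 2.08% of the genes tested, *Myh11* (log2 difference 3.51 ± 0.74 (SE), edgeR adjusted p = 0.0187), which stood at 0, 16.4, 33.6 and 163 CPM.

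Other contractile and cytoskeletal genes, 21 in all, were compared between regions in the same fits, and 4 of 21 passed in SMC-like cells (3.82% of all genes tested), in both directions. In these cells 2 were higher in SI, *Pdlim3* (a Z-line associated protein, log2 difference 1.97 ± 0.37 (SE), edgeR adjusted p = 0.0286) and *Myl6* (the essential myosin light chain, 1.52 ± 0.23, adjusted p = 0.0126). 2 were higher in LI, *Ppp1r14a* (an inhibitor of myosin phosphatase, −1.25 ± 0.19, adjusted p = 0.0127) and *Des* (the muscle intermediate filament protein, −1.70 ± 0.37, adjusted p = 0.0484). *Des* stood at 111 and 79.6 CPM in LI and at 15.8 and 35.9 CPM in SI, opposite to *Acta2* in the same cells. The median over the 21 genes was 0.62. In FB-like cells 3 of 21 passed (2.67% of all genes tested), *Myl6* towards SI and *Ppp1r14a* and *Pcp4* (a calmodulin regulator) towards LI, and in mesothelial-like cells 1 of 20 (1.12% of all genes tested), *Ppp1r14a* (−3.81 ± 0.44, adjusted p = 0.00152).

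Regulators of the programme and signals known to act on gut muscle numbered 19. In SMC-like cells *Hand2*, a transcription factor of gut mesenchyme, was higher in SI (0.94 ± 0.17 (SE), edgeR adjusted p = 0.0254) and *Nkx3-2*, a homeobox factor, was higher in LI (−2.74 ± 0.51, adjusted p = 0.0272). *Nkx3-2* was scarce, with an average log2 CPM of 0.36 in the sums of all kept cells. The other 17 did not pass, so that 2 of 19 did, against 3.82% of all genes tested, and the median was −0.0047. In FB-like, mesothelial-like and neural-like cells 0 of the 19, 18 and 14 tested passed, with 3, 3 and 2 at an unadjusted p under 0.05, close to the 14.3%, 11% and 8.32% of all genes tested. Of 6 other actins and non-muscle myosins, the skeletal actin gene *Acta1* was higher in LI in SMC-like cells (−2.53 ± 0.41, adjusted p = 0.0157), which is 1 of 6 against the same 3.82%. Its coding sequence is close to that of *Acta2* and *Actg2*.

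The genes most like the mean of the 9 contractile genes were found over 38 sums of library and cluster, by Pearson's r of log2(CPM + 5) among 7155 genes. Sums of 1 library share its depth and the 9 genes are part of their own mean, so r is a description. *Acta2* (r = 0.98), *Cnn1* (0.98), *Actg2* (0.97), *Mylk* (0.96), *Myl9* (0.95) and *Lmod1* (0.91) were themselves among the 10 most similar genes, with *Nexn* and *Tpm2* from the list of other contractile genes (0.94 and 0.91). *Traf5* (0.94) and *Anxa6* (0.92) were the only 2 from no list. *Tagln* ranked 30 (0.85) and *Smtn* 39 (0.835), and *Des* ranked 2302 (0.20). Among 7154 genes, most like *Myocd* were *Synpo2* (0.94), *Mylk* (0.93), *Gpr20* (0.90), *Mrvi1* (0.90) and *Pxylp1* (0.89), while *Acta2* ranked 12 (0.87), *Myh11* 75 (0.77) and *Tagln* 208 (0.64).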

How the data were processed

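Counts of UMIs per gene and cell were deposited by the authors for 4 libraries, made with Cell Ranger 3.1.0 on mm10 per the submitters' notes. Cells with at least 1000 genes and under 10% mitochondrial counts were kept. Scrublet's own threshold marked almost no cell, so the cells with the highest doublet scores were removed (0.8% per 1000 cells). Libraries were integrated and clustered with Seurat 5.3.0 (30 components, resolution 0.3), on 2000 variable genes that left out the 10 genes and other contractile genes. Summed counts were tested with edgeR 4.0.16 (quasi-likelihood, TMM, Benjamini-Hochberg over all genes, adjusted p under 0.05), after a filter on low counts and a check on simulated data. DESeq2 1.42.0 was an alternative. The p-values measure the spread between 2 pools per region. The 10 genes and the lists were chosen with earlier results of these data known. Named genes were all 10, list genes past the threshold, and the genes most like them.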

Additional observations from a re-analysis of the deposited data

Results flagged for a closer look

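The difference between SI and LI in mesothelial-like cells departed from that in FB-like cells for 3 of the 10 genes, against 3.46% of 12804 genes. By the interaction term of edgeR's quasi-likelihood test these were *Cnn1* (log2 −2.18), *Mylk* (−1.74) and *Smtn* (−1.45). The calls of *Mylk* and *Smtn* were lost under several alternative fits, as given above. Of the 21 other contractile genes, 5 were called with a negative interaction and 1 with a positive one, against the same 3.46% of all genes. Among the 5 of smallest adjusted p it was −2.82 for *Ppp1r14a*, −1.62 for *Pdlim3*, −0.66 for *Csrp1*, −0.47 for *Cald1* and 0.95 for *Des*. Among regulators it was −1.31 for *Hhip*, −0.44 for *Klf4* and 0.80 for *Mef2c*, and among other actins and myosins −0.41 for *Myh10*.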

How the results depend on the processing

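The number of the 10 genes called between SI and LI depended on the fit. Without the filter on low counts it was 8 in all kept cells, 10 in mesenchyme-like, 6 in FB-like, 10 in SMC-like, 2 in mesothelial-like and 2 in neural-like cells, and 5 and 3 in the interactions of mesothelial-like and of SMC-like with FB-like cells. The share of all genes called rose too, to 5.93%, 7.56%, 5.87%, 8.21%, 2.54% and 2.16% in the 6 groups. It was 3.51% and 1.36% in the 2 interactions. With the replicate block it was 7, 9, 5, 10, 3 and 2 in the same 6 groups, with 6.51%, 12.7%, 4.77%, 10.3%, 7.05% and 4.27% of all genes called. Replicates of 1 number shared no stated source, and their deviations correlated at 0.227 to 0.365. The DESeq2 Wald test gave 1 in SMC-like cells, 4 in FB-like cells and 1 in the mesothelial-like interaction (4.97%, 3.56% and 0.898% of all genes). With doublets kept, the count was 1 in mesothelial-like cells, 3 of 9 tested in neural-like cells (6 in the reported fit) and 1 in the mesothelial-like interaction (1.35%, 0.546% and 3.32%), and with the contractile genes used for clustering it was 1 in mesothelial-like cells, 4 in FB-like cells and 4 in the mesothelial-like interaction (1.06%, 3.78% and 5.74%). Leaving out 1 library gave 3 to 8 in all kept cells, 5 to 10 in mesenchyme-like, 3 to 6 in FB-like, 3 to 10 in SMC-like, 0 to 4 in mesothelial-like and 0 to 2 in neural-like cells, and 2 to 5 and 0 to 2 in the interactions. In those fits 3.46% to 12.2%, 4.37% to 13.8%, 3.36% to 9.58%, 3.36% to 13.6%, 0.84% to 11.9% and 0.219% to 12.9% of all genes were called in the 6 groups, and 1.95% to 4.3% and 0% to 1.98% in the interactions. The difference in the share of cells with 5 or more genes ranged from 13.9 to 34.1 points, the half-rise decile of *Myocd* from 7.33 to 8.33, and the number of genes higher in mesothelial-like than in FB-like cells from 0 to 1.

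Some directions turned. With contractile genes used for clustering, the log2 difference was −0.099 for *Lmod1* in FB-like cells, and −0.15 for *Mylk* and −0.40 for *Acta2* in mesothelial-like cells, where *Myocd* was 0.89 with doublets kept. With 1 library left out, it ranged in FB-like cells from −0.36 to 0.65 for *Lmod1*, −0.20 to 0.38 for *Myl9* and −0.63 to 0.11 for *Tagln*. In mesothelial-like cells it ranged from −1.14 to 0.48 for *Lmod1*, −0.78 to 0.19 for *Myl9*, −1.14 to 0.49 for *Myocd*, −0.31 to 0.49 for *Mylk* and −0.69 to 1.46 for *Acta2*. The cause was not tested.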
